A study of Mus musculus with 18 samples.

Results

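The 4 tumor suppressor genes Rb1, Rbl1, Rbl2 and Trp53, the retinoblastoma family and p53, were followed through 9 RNA-seq and 9 ATAC-seq libraries of mouse small cell lung cancer. They were chosen by name, as the genes behind the conditional alleles of the model, and are 4 of the 46078 genes counted. ATAC-seq reads mark open chromatin, and 16 of the 111664 deposited peaks overlapped the stretch from 5000 bp upstream of one of these genes to its end: 8 at Rb1, 4 at Rbl1, 2 at Rbl2 and 2 at Trp53. All 4 genes and all 16 peaks passed the filter on low counts.

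The model carries conditional alleles that the labels write as Rb1L/L, Rbl1L/L and p53L/L, where L stands for a loxP-flanked allele in the study's methods. The study's methods name the middle locus as Rbl1 in one place and as Rbl2 in another. Its results text, a figure legend of the model and its reporting summary name Rbl2. Libraries of 3 genotypes were compared, each with 3 independent animals per assay: TKO, which carries these alleles alone, the CARM1 knockout (TKO with Carm1L/L, a conditional allele of an arginine methyltransferase) and the NFIB mutant (TKO with NfibR388K, a knock-in that replaces arginine with lysine in the transcription factor NFIB). Adenovirus-Cre was given into the trachea of mice 8 weeks old, and tumors were taken 28 weeks later. The mice had a mixed C57BL/6;FVB129/N background, and the methods describe cancer cells sorted for a tdTomato reporter, in one place as cancer cell lines. Cre from adenovirus acts in any lung cell that takes up the virus. All groups share the Rb family and p53 alleles and no library lacked them, so the comparisons do not measure the deletions themselves, and a count over a whole gene does not tell a transcript without the deleted exons from an intact one. The same limit applies to Carm1. It was at 44.5 to 103 counts per 1000000 counts of the library (CPM) in TKO and 50.8 to 79.1 CPM in the CARM1 knockout. All CPM were computed with library totals scaled by normalization factors, the TMM factors of edgeR.

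Rb1 encodes pRB, Rbl1 encodes p107 and Rbl2 encodes p130. These pocket proteins bind E2F transcription factors and hold back genes of the cell cycle until cyclin D and cyclin E kinases phosphorylate them. p107 and p130 also join the MuvB proteins in the DREAM complex, and Rbl1 is itself a known E2F target. Trp53 encodes p53, which answers DNA damage by inducing genes of cell cycle arrest and cell death.

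The sequences below carry the chromatin results. They were read on the strand of the gene in GRCm38, with E2F sites (TTTCCCGC, TTTCGCGC, TTTGCCGC or TTTGGCGC), NFI words (TTGGC, the core bound by NFIB and its family) and CHR elements (TTTGAA) in capitals where present on either strand, so that a site on the other strand shows as its reverse complement. The line for the Rbl1 promoter gives the 250 bases before the RefSeq start at chr2:157204535-157204784. The other lines give the middle 300 bases of peaks, at chr2:157202450-157202749 in an Rbl1 intron, and at chr14:73313180-73313479, chr14:73258275-73258574 and chr14:73293684-73293983 in introns of Rb1.
Rbl1 promoter: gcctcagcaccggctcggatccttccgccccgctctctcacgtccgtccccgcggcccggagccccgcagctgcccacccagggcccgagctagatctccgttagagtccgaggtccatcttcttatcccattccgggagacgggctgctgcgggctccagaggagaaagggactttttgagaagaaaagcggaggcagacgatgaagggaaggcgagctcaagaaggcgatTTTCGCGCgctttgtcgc
Rbl1 intron peak, 1934 bp from the start: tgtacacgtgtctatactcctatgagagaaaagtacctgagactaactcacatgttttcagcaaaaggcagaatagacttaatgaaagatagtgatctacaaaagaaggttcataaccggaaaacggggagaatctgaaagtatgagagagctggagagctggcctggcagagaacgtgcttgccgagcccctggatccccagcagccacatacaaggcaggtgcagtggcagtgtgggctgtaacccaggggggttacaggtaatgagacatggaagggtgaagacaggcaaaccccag
Rb1 intron peak lower in the mutants, 12492 bp from the start: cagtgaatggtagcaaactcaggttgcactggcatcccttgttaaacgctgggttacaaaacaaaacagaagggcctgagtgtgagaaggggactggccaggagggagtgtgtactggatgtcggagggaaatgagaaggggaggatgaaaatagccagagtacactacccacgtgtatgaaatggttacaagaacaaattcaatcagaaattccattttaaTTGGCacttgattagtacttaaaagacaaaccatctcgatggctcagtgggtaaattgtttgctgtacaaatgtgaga
Rb1 intron peak lower in the mutants, 67397 bp from the start: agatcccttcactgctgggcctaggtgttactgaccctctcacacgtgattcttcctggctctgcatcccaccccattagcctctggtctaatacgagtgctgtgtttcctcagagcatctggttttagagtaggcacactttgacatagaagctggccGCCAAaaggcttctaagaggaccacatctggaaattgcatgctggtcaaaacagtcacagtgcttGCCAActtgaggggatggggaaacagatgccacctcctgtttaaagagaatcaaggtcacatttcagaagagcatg
Rb1 intron peak higher in the mutants, 31988 bp from the start: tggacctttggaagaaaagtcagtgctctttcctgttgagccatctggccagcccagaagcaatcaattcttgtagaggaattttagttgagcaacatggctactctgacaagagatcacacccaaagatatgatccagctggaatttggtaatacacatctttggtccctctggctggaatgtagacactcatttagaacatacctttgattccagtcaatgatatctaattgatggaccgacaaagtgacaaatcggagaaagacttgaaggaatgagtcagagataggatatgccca
The Rbl1 promoter held 1 E2F site, TTTCGCGC, that began 18 bases before the start. Of 32851 RefSeq promoters of 300 bases, 2.26% held such a site, 46.7% an NFI word and 17.9% a CHR element. The RefSeq promoter of Rbl2 held 1 CHR element and that of Trp53 held none of these, although it held 1 stretch that matched a decamer of the p53 response element on both strands, a match found in 8.36% of promoters. Promoter sequences were found for 3 of the 4 genes, not for Rb1. The Rb1 peaks 12492 and 67397 bp from the start held 1 and 2 NFI words, the Rb1 peak 90970 bp away, which was higher in the mutants, held 1, and the Rb1 peak 31988 bp away and the Rbl1 intron peak held none, against 50.6% of the middles of all peaks with at least 1. The middles of the start-site peaks of Rb1 and Rbl1 each held 1 E2F site, TTTCCCGC, against 1.06% of the middles of all peaks.

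RNA-seq libraries held 15848866 to 20915057 counts in genes and ATAC-seq libraries 26917178 to 47653979 counts in peaks, so 3 counts equal 0.143 to 0.189 CPM of RNA and 0.0630 to 0.111 CPM of a peak. Intervals and limits of this kind cover counting error only. Neuroendocrine markers, which are typical of most but not all small cell lung cancer, were present in TKO (12 of 12 at 1 CPM or more in every library, summed level 1691 to 4202 CPM). Their sum was 59.3 and 189 CPM in CARM1 knockout replicates 1 and 2, 1991 CPM in replicate 3 and 33.5 to 51.1 CPM in the NFIB mutant, where Neurod1, Insm1, Chgb, Syp, Calca and Dll3 were under 1 CPM in every library. The sum of 6 fibroblast markers was 11.1 to 63.4 CPM in TKO, 14457 to 25795 CPM in the CARM1 knockout and 9479 to 15915 CPM in the NFIB mutant. The sum of 6 leukocyte markers was 3.19 to 51.6, 168 to 2404 and 15.5 to 415 CPM, with Cd3e under 1 CPM everywhere. The sum of 7 lung epithelium markers was 281 to 628 CPM in TKO, 2.58 to 523 CPM in the CARM1 knockout and 0.699 to 2176 CPM in the NFIB mutant. The cell type on the labels was therefore not borne out by neuroendocrine markers in 5 of the 6 mutant libraries. CARM1 knockout replicate 3, the exception, had the highest fibroblast and leukocyte sums, 25795 and 2404 CPM. In bulk libraries, fewer cells of a type and less RNA per cell cannot be told apart. The part of these cell types in the results on Rb1, Rbl2 and Trp53 below was not tested.

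Rb1 RNA was lower in both mutants than in TKO. The 3 TKO libraries had 92.3, 60.4 and 73.2 CPM, the CARM1 knockout libraries 23.1, 18.4 and 48.7 CPM, and the NFIB mutant libraries 32.6, 31.2 and 8.58 CPM. Every mutant library was below every TKO library. The highest mutant value was in CARM1 knockout replicate 3, the mutant library with the highest neuroendocrine sum. That library also had the highest fibroblast and leukocyte sums of all libraries (25795 and 2404 CPM). Within TKO the highest neuroendocrine sum was in replicate 3 (4202 CPM), whereas Rb1 was highest in replicate 1. Means were 75.3 ± 16.0 CPM (SD, n = 3) in TKO, 30.1 ± 16.3 CPM in the CARM1 knockout and 24.1 ± 13.5 CPM in the NFIB mutant. The log2 fold change against TKO was -1.32 (SE 0.55, adjusted p = 0.0932, quasi-likelihood test of edgeR, adjusted over 15514 genes by Benjamini-Hochberg) in the CARM1 knockout and -1.64 (SE 0.55, adjusted p = 0.0442 by the same test) in the NFIB mutant. A gene was called at an adjusted p below 0.1 with a log2 fold change of at least 0.8 in size, which held for 38.8% of genes in the CARM1 knockout and 45.8% in the NFIB mutant. The CARM1 knockout call held only without CARM1 knockout replicate 3 (adjusted p = 0.0475) or NFIB mutant replicate 3 (0.0389) when libraries were left out in turn, and the adjusted p in the other 7 fits was 0.107 to 0.230, edgeR's test. The NFIB mutant call was lost only without TKO replicate 1 (adjusted p = 0.109).

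Rbl2 RNA was called lower in the CARM1 knockout and was not called in the NFIB mutant. Most neuroendocrine markers were under 1 CPM in 2 of the 3 CARM1 knockout libraries and in all 3 NFIB mutant libraries. TKO had 24.3, 17.9 and 16.4 CPM, the CARM1 knockout 10.3, 8.17 and 13.1 CPM, and the NFIB mutant 14.95, 17.1 and 9.09 CPM. The CARM1 knockout libraries were all below the TKO libraries, whereas the NFIB mutant range overlapped that of TKO. The log2 fold change was -0.89 (SE 0.33, adjusted p = 0.0707, edgeR's quasi-likelihood test) in the CARM1 knockout and -0.51 (SE 0.33, adjusted p = 0.239) in the NFIB mutant. The CARM1 knockout call was lost without TKO replicate 1 or 2 (adjusted p = 0.209 and 0.115) and without CARM1 knockout replicate 1 or 2 (0.164 and 0.187, edgeR). Aktip, on the other strand, shares 693 bp of exon with Rbl2 and had log2 fold changes of -0.12 and -0.34, neither called.

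Trp53 RNA was low in every library and was not called in either mutant. TKO had 10.9, 9.62 and 12.4 CPM, the CARM1 knockout 7.86, 5.54 and 6.24 CPM, and the NFIB mutant 7.599, 3.70 and 7.56 CPM. All 6 mutant libraries were below the 3 TKO libraries. The log2 fold change was -0.75 (SE 0.39, adjusted p = 0.162, edgeR's quasi-likelihood test) in the CARM1 knockout and -0.80 (SE 0.39, adjusted p = 0.123) in the NFIB mutant. The Wald test of DESeq2 called Trp53 lower in the NFIB mutant (-0.82, adjusted p = 0.0521). So did edgeR's test on genes with at least 10 counts in every library (-0.87, adjusted p = 0.0565). The neighbouring gene Wrap53, on the other strand and sharing the start-site peak, had 17.5 to 22.1 CPM in TKO and 14.9 to 29.7 CPM in the mutants. Whether the counting used strand is not given in the sources used here, so reads of overlapping genes on opposite strands may not be told apart. In the annotation used, no other gene overlapped Trp53. The limit concerns Rb1 and Rbl2, which share exon with genes on the other strand.

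Over the 4 genes, 2 were called lower in the CARM1 knockout, where 18.3% of all genes were called lower, and 1 in the NFIB mutant, where 23.5% were. Libraries of the 2 groups did not overlap for 3 of the 4 genes in the CARM1 knockout and for 2 of 4 in the NFIB mutant, against 54.8% and 57.7% of all genes. The median log2 fold change of the 4 genes was -0.82 and -0.66, against -0.03 and -0.05 over all genes. Scaling by library totals lowered the median of all genes by 0.27 and 0.33 and called Trp53 lower as well in both mutants, and Rbl2 in the NFIB mutant, for 3 of the 4 genes in each. It also changed the share of higher genes among all calls from 52.9% to 39.4% in the CARM1 knockout and from 48.7% to 35.8% in the NFIB mutant. Between the 2 mutants none of the 4 was called (log2 fold changes -0.38 to 0.51, adjusted p = 0.787 to 0.982, edgeR), in a comparison that called 0% of genes, 1414 of 15514 at an unadjusted p below 0.05, and 535 by DESeq2.

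**Figure D1:**
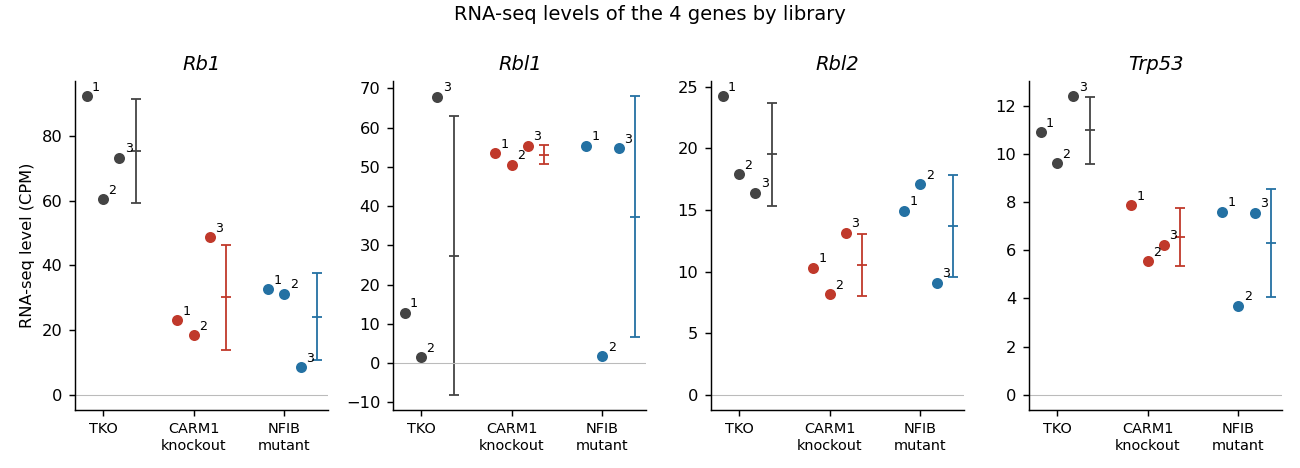
RNA-seq level (CPM, vertical axis) of each gene in the 9 libraries, by genotype on the horizontal axis; numbers are replicate numbers, and the bar beside each group is the mean ± SD (n = 3). Rb1 and Trp53 lay below TKO in all mutant libraries, and Rbl1 was split within TKO and within the NFIB mutant.

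Rbl1 RNA differed between animals of 1 genotype more than between genotypes. TKO had 12.9, 1.49 and 67.8 CPM, the CARM1 knockout 53.5, 50.6 and 55.4 CPM, and the NFIB mutant 55.4, 1.79 and 54.7 CPM. Thus 6 libraries lay between 50.6 and 67.8 CPM, TKO replicate 1 was at 12.9 CPM, and TKO replicate 2 and NFIB mutant replicate 2 were near 1.5 to 1.8 CPM, from 34 and 29 counts, above the 3 counts taken as a floor. The log2 fold change was 0.96 (SE 1.33, adjusted p = 0.596, edgeR's quasi-likelihood test) in the CARM1 knockout and 0.45 (SE 1.32, adjusted p = 0.801) in the NFIB mutant. Without TKO replicate 3 these were 2.93 (adjusted p = 0.155) and 2.40 (0.203), so a difference between genotypes was not detectable beside this spread.

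The ATAC-seq peak over the Rbl1 start site (chr2:157203351-157205131) followed the same library numbers. It had 2.81, 1.76 and 31.9 CPM in TKO, 17.96, 19.9 and 18.3 CPM in the CARM1 knockout, and 19.1, 1.78 and 16.6 CPM in the NFIB mutant. The 3 libraries with little start-site signal had the same genotype and number as the 3 RNA-seq libraries with the least Rbl1 RNA. The study's text says that both assays used the same tumor biopsies, and the labels do not say whether the same number marks the same tumor. Its log2 fold change was 0.63 (SE 0.98, adjusted p = 0.585, edgeR's quasi-likelihood test) in the CARM1 knockout and 0.04 (SE 0.97, adjusted p = 0.973) in the NFIB mutant, and it became 3.04 (adjusted p = 0.00681) and 2.45 (0.0161) without TKO replicate 3.

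The next peak, in the intron 1934 bp into Rbl1 (chr2:157202292-157202908), had the opposite order. It had 16.2, 6.06 and 0.930 CPM in TKO, 0.956, 0.269 and 0.314 CPM in the CARM1 knockout, and 0.538, 4.60 and 0.373 CPM in the NFIB mutant. It was highest in the same 3 libraries that were lowest at the start site. The ratio of start-site counts to intron counts was 0.173, 0.291 and 34.4 in TKO, 18.8, 74.0 and 58.1 in the CARM1 knockout, and 35.4, 0.387 and 44.4 in the NFIB mutant, a measure that does not depend on library scaling. The intron peak was lower in the CARM1 knockout (log2 fold change -3.92, SE 1.18, adjusted p = 0.0136, edgeR's quasi-likelihood test), -2.78 without TKO replicate 1 (0.0581). In the NFIB mutant it was not called (-2.08, SE 1.08, adjusted p = 0.108), but it was -4.08 without NFIB mutant replicate 2 (0.0143), -2.59 without TKO replicate 3 (0.0354) and -0.93 without TKO replicate 1 (0.473). DESeq2 called the intron peak lower in the NFIB mutant, as did edgeR with the size factors of DESeq2. The other 112 peaks within 500000 bp of Rbl1 summed to 1818, 861 and 1168 CPM in TKO and to 579 to 670 CPM in the 6 mutant libraries, with 670 CPM in NFIB mutant replicate 2. The 18 other genes tested there summed to 2037, 1116 and 2763 CPM in TKO, an order in which replicate 3 was highest and replicate 2 lowest as for Rbl1, and to 1144 to 1454 CPM in the mutants, with 1361 CPM in NFIB mutant replicate 2. The part of the region in the Rbl1 values was not tested.

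**Figure D2:**
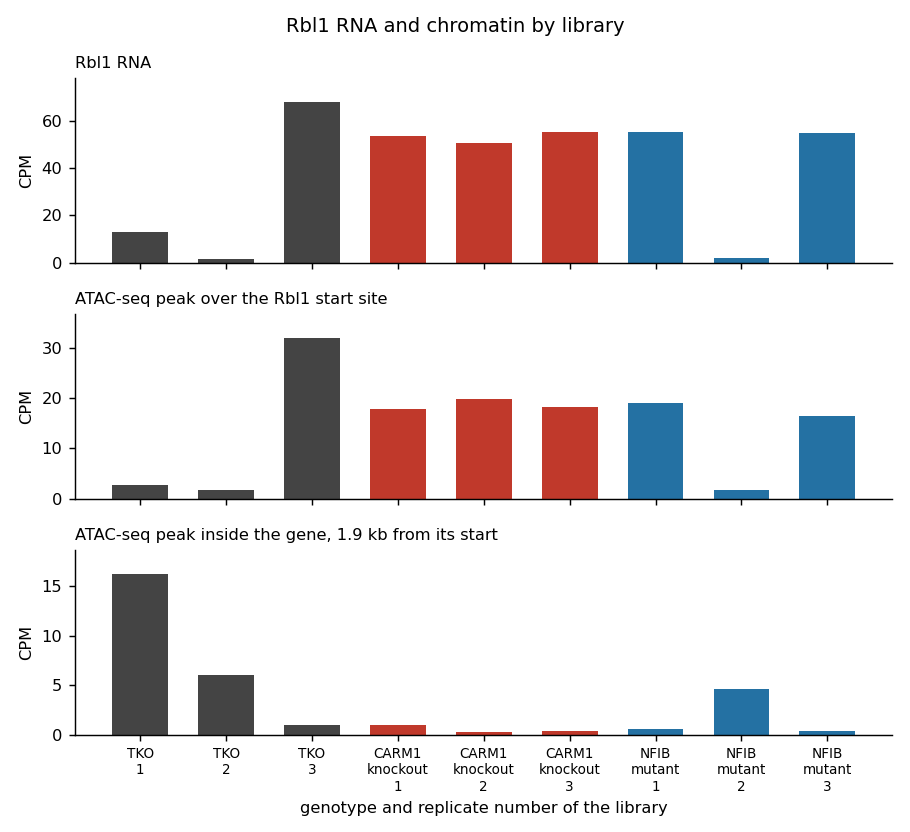
CPM (vertical axes) of Rbl1 RNA, of the ATAC-seq peak over its start site and of the peak 1934 bp into the gene, in each library (horizontal axis, genotype and replicate number). TKO replicates 1 and 2 and NFIB mutant replicate 2 were low for RNA and the start site and high for the intron peak.

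The remaining Rbl1 peaks, 33950 and 56550 bp into the gene, were higher in both mutants. The nearer had 0.742 to 1.34 CPM in TKO, 2.87 to 7.83 CPM in the CARM1 knockout and 4.40 to 6.78 CPM in the NFIB mutant, with log2 fold changes of 2.44 (SE 0.48, adjusted p = 0.00159) and 2.57 (SE 0.49, adjusted p = 0.00112), edgeR's quasi-likelihood test. The farther was at most 0.338 CPM in TKO and 0.798 to 2.59 CPM in the mutants, with log2 fold changes of 3.04 and 2.52. Neither peak split the libraries as the start site did: NFIB mutant replicate 2 had 4.40 and 1.23 CPM.

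Inside Rb1, open chromatin changed at 4 intron peaks, and the start-site peak was not called. The start-site peak (chr14:73324405-73327080) had 37.0, 34.2 and 23.6 CPM in TKO, 21.7, 25.6 and 23.3 CPM in the CARM1 knockout and 23.3, 28.3 and 22.7 CPM in the NFIB mutant, and the groups overlapped. Its log2 fold changes were -0.43 (SE 0.20, adjusted p = 0.0790) and -0.35 (SE 0.20, adjusted p = 0.135, edgeR), under the 0.5 set for peaks. Without TKO replicate 3 they were -0.59 and -0.52, past both thresholds, as they were with the size factors of DESeq2 (-0.61 and -0.50), and scaling by library totals made them 0.18 and 0.24.

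The peak 12492 bp into Rb1 (chr14:73312917-73313744) had 12.3, 12.4 and 5.20 CPM in TKO, 0.853, 0.595 and 2.44 CPM in the CARM1 knockout, and 0.717, 0.746 and 0.510 CPM in the NFIB mutant. All mutant values were below TKO, and the highest of them was in CARM1 knockout replicate 3. Within TKO the lowest value was in replicate 3. The log2 fold changes were -2.94 (SE 0.60, adjusted p = 0.00182) and -3.92 (SE 0.63, adjusted p = 0.000465), edgeR's quasi-likelihood test. The peak 67397 bp in (chr14:73257807-73259044) had 18.2, 14.8 and 1.18 CPM in TKO and 0.0785 to 1.23 CPM in the mutants, with log2 fold changes of -4.28 (SE 1.05) and -3.93 (SE 1.03), and TKO replicate 3 lay within the range of the NFIB mutant. The peak 31988 bp in (chr14:73293496-73294173) went the other way, from 0.159, 0.247 and 0.254 CPM in TKO to 5.66, 3.07 and 7.86 CPM in the CARM1 knockout and 6.19, 7.53 and 7.61 CPM in the NFIB mutant. Its log2 fold changes of 4.64 (SE 0.51, adjusted p = 7.08e-05) and 5.002 (SE 0.51, adjusted p = 4.46e-05, edgeR) were the largest of the 16 peaks in size in both comparisons. The peak 90970 bp in was higher as well, with 3.62 (SE 0.52) and 4.01 (SE 0.52). All 4 calls were made in every alternative fit that kept the peak, 17 or 18 for each.

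A further 3 Rb1 peaks, 86168 to 87480 bp in, lie over Lpar6, a receptor gene for lysophosphatidic acid that sits within Rb1 on the other strand. None was called in either mutant, and the smaller 2 had at most 1.92 CPM. The most read of them had 4.05, 12.9 and 0.803 CPM in TKO and 8.67 to 12.1 CPM in the mutants. Its log2 fold change was 0.87 and 0.86 (adjusted p = 0.277 and 0.275, edgeR), became 2.14 in both, a call, without TKO replicate 2 (0.0118 and 0.0112), and was called with scaling by totals. The smallest was called in the CARM1 knockout without TKO replicate 2 (2.46, adjusted p = 0.0572, against 0.97). Lpar6 RNA was 0.399 to 2.10 CPM in TKO and 3.79 to 11.6 CPM in the mutants, called higher with log2 fold changes of 2.54 and 2.92, the opposite direction to Rb1. Of the exons of Rb1, 408 bp are shared with Lpar6 and 488 bp with Rcbtb2.

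The start-site peaks of Rbl2 and Trp53 varied little. That of Rbl2 (chr8:91069203-91071357) had 24.2, 26.8 and 30.5 CPM in TKO, 25.5, 30.6 and 27.7 CPM in the CARM1 knockout and 19.8, 22.7 and 19.3 CPM in the NFIB mutant, which lay below TKO. Its log2 fold changes were 0.04 (SE 0.17, adjusted p = 0.839) and -0.40 (SE 0.17, adjusted p = 0.0556), edgeR's quasi-likelihood test, and scaling by library totals made the first 0.61, a call. The second was called lower by DESeq2 (-0.54, adjusted p = 0.0121) and with its size factors in edgeR (-0.55, adjusted p = 0.0137). The Trp53 peak (chr11:69578007-69582068), which also covers the start of Wrap53, was the most read of the 16, with 62.9, 56.2 and 56.1 CPM in TKO, 42.1, 49.7 and 48.2 CPM in the CARM1 knockout and 47.9, 48.7 and 51.0 CPM in the NFIB mutant. All mutant libraries were below TKO, by log2 fold changes of -0.32 (SE 0.13, adjusted p = 0.0418) and -0.25 (SE 0.13, adjusted p = 0.102, edgeR), under the fold threshold, and scaling by library totals turned them to 0.26 and 0.32, whereas the size factors of DESeq2 made the first -0.50 (adjusted p = 0.00482), a call. The other Trp53 peak, 5040 bp upstream, had 0.658 to 1.47 CPM over the 9 libraries and was not called. A small peak 3067 bp into Rbl2 had 0.0956, 0.0618 and 0.465 CPM in TKO, 2.64, 0.941 and 0.653 CPM in the CARM1 knockout and 0.209, 0.433 and 0.491 CPM in the NFIB mutant, and was called higher in the CARM1 knockout (2.81, SE 0.84, adjusted p = 0.0131), 1.999 without CARM1 knockout replicate 1 and 4.12 without TKO replicate 3. In the NFIB mutant it was 0.93 (SE 0.84, adjusted p = 0.337), and 2.24 (0.0443) without TKO replicate 3.

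**Figure D3:**
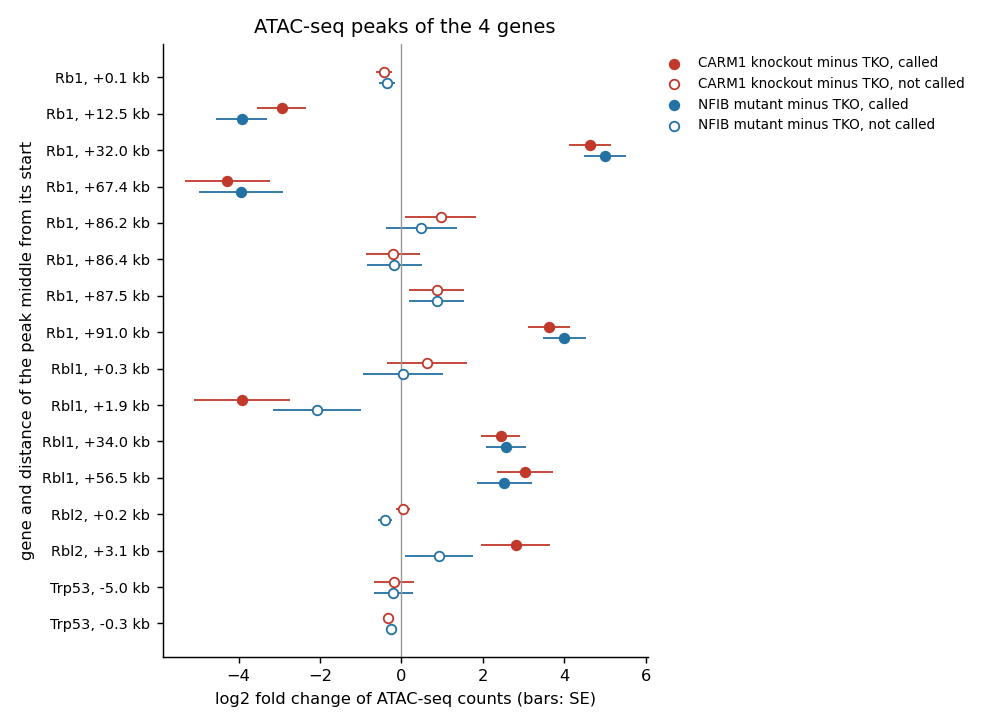
Log2 fold change of ATAC-seq counts against TKO (horizontal axis, bars SE) for the 16 peaks, ordered by gene and by the distance of the peak middle from the gene's start in kb (vertical axis); filled points were called. The start-site peaks lay between -0.43 and 0.63, and the called peaks lay inside Rb1, Rbl1 and Rbl2.

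In all, 8 of the 16 peaks were called in the CARM1 knockout, 5 higher and 3 lower, where 71.1% of all peaks were called, 38.7% higher and 32.4% lower. In the NFIB mutant 6 were called, 4 higher and 2 lower, against 73.3% of all peaks, 39.3% higher and 34% lower. The members' shares were below these backgrounds, and their median log2 fold changes were 0.33 and -0.07, against 0.22 and 0.22 over all peaks. Without TKO replicate 3 the NFIB mutant count was 10. Scaling by library totals raised the median of all peaks by 0.58 and 0.57 and the share of higher peaks among all calls from 54.4% to 65.9% and from 53.6% to 64.3%, and among the 16 it called 7 higher and 3 lower in the CARM1 knockout and 5 higher and 2 lower in the NFIB mutant. With the size factors of DESeq2, which moved the median of all peaks by -0.18 and -0.15, it was 5 higher and 5 lower in the CARM1 knockout and 4 higher and 5 lower in the NFIB mutant, so the balance of directions depended on the scaling. None of the 16 was called between the mutants (smallest adjusted p = 0.756, edgeR), in a comparison that called 0% of all peaks, 6813 at an unadjusted p below 0.05, and 1060 by DESeq2.

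Per kilobase of exon, Rb1 had the highest RNA level of the 4 genes in 4 libraries and Rbl1 in the other 5. In TKO, Rb1 was at 15.3, 10.05 and 12.2 CPM per kb, Rbl2 at 3.21, 2.37 and 2.17, Trp53 at 2.70, 2.38 and 3.07, and Rbl1 at 2.15, 0.248 and 11.3 CPM per kb. Rbl2 and Trp53 overlapped in each genotype and did not differ beyond their spread. In the 3 CARM1 knockout libraries the level per length of Rbl1 was 8.92, 8.44 and 9.24 CPM per kb and exceeded that of Rb1, at 3.84, 3.06 and 8.09. The same held in NFIB mutant replicates 1 and 3, whereas replicate 2 had Rb1 at 5.19 and Rbl1 at 0.298 CPM per kb. Over the 9 libraries the level of Rbl1 spanned a 45.6-fold range, that of Rb1 10.8-fold, that of Trp53 3.35-fold and that of Rbl2 2.97-fold. Rbl1 per length was 0.105 to 0.669 times Rbl2 in TKO replicates 1 and 2 and NFIB mutant replicate 2, and 4.68 to 7.81 times Rbl2 in the other 6 libraries.

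**Figure D4:**
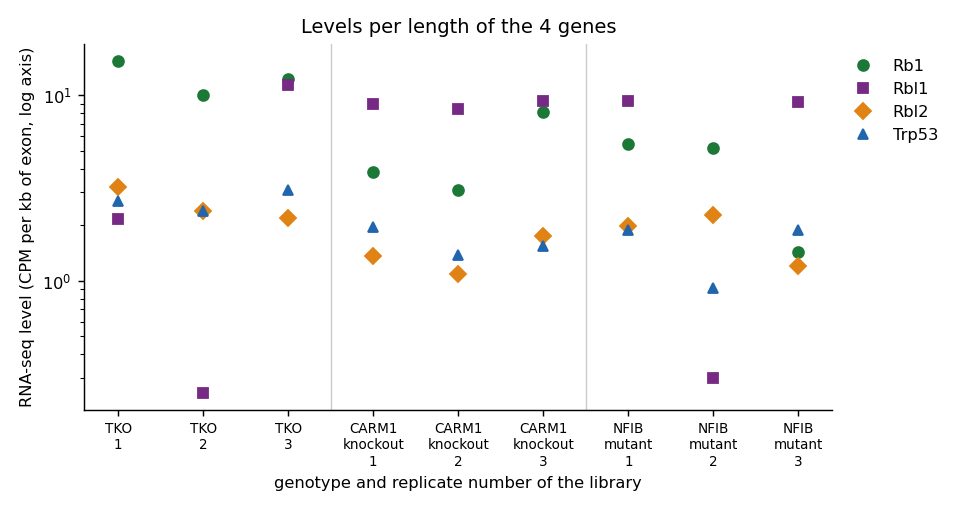
RNA-seq level per kb of exon (CPM per kb, log axis) of the 4 genes in each library (horizontal axis, genotype and replicate number). Rb1 led in all TKO libraries and in NFIB mutant replicate 2, and Rbl1 led in the other 5.

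The genes whose centred log2 CPM was most like that of each member over the 9 libraries were picked by the root mean square of the difference, as a description. For Rb1 they were Pde5a, Gng2 and Map3k1 (0.29 to 0.32, where Rb1 itself had an SD of 1.07), and Pde5a went from 15.1 to 23.0 CPM in TKO to 2.92 to 11.9 CPM in the mutants. For Rbl1 the nearest were Stbd1, Grb10 and the pseudogene Gm11868 (0.93 to 1.08, SD of Rbl1 2.19), less close than for the other members. Grb10, an adaptor of growth factor receptors, had 5.99 CPM in TKO replicate 2 and 7.03 CPM in NFIB mutant replicate 2, against 38.0 to 347 CPM in the other 7 libraries, so it did not follow Rbl1 in TKO replicate 1, at 65.7 CPM. For Rbl2 they were 1700008J07Rik, B230307C23Rik and Phf20 (0.15 to 0.18, SD of Rbl2 0.51), and for Trp53 Ankrd39, Eny2 and Gkap1 (0.19 to 0.21, SD of Trp53 0.52).

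Among the cyclins and kinases that phosphorylate the Rb family, 4 of 9 rose and 1 fell in each mutant. Of all genes, 38.8% in the CARM1 knockout and 45.8% in the NFIB mutant were called in either direction. Ccnd1, Ccnd2 and Ccnd3, the D-type cyclins, and Cdk6, their kinase, were higher. Ccnd2 was at 0, 0.919 and 0.443 CPM in TKO, 219, 98.0 and 133 CPM in the CARM1 knockout and 103, 56.5 and 134 CPM in the NFIB mutant. Ccnd1 had log2 fold changes of 5.23 (adjusted p = 0.00378) and 5.54 (adjusted p = 0.00247), edgeR's quasi-likelihood test, Cdk6 3.94 and 3.63, and Ccnd3 2.20 and 2.56. Ccne2, a cyclin E and the 1 that fell, had log2 fold changes of -1.51 and -2.03. In the same mutant libraries the fibroblast sum was above TKO in all 6 and the neuroendocrine sum below TKO in 5, with the values given above, and their part in this and the following gene lists was not tested.

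Of 7 CDK inhibitors, 2 rose and 3 fell in the CARM1 knockout, and 2 rose and 2 fell in the NFIB mutant, against 38.8% and 45.8% of all genes called in either direction. Cdkn2b, which encodes p15, rose from 1.82 to 2.41 CPM in TKO to 38.0 to 49.3 CPM in the CARM1 knockout and 35.8 to 46.6 CPM in the NFIB mutant (log2 fold changes 4.31 and 4.26). Cdkn2a, which encodes p16 and p19ARF, rose from 92.5 to 113 CPM to 295 to 381 CPM and 352 to 588 CPM (1.78 and 2.21). Cdkn1b, which encodes p27, fell, with log2 fold changes of -1.66 and -1.54, as did Cdkn1c, which encodes p57, with -4.18 and -4.73. Cdkn1a, which encodes p21 and is the best known p53 target, was called lower in the CARM1 knockout (77.1, 37.9 and 60.1 CPM in TKO, 25.8, 22.0 and 41.9 CPM in the CARM1 knockout, log2 fold change -0.96, adjusted p = 0.0980, edgeR) in 8 of 16 alternatives. In the NFIB mutant it had 94.7, 77.9 and 40.2 CPM (0.28, adjusted p = 0.587).

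Of 10 E2F and DP factors, 1 rose and 4 fell in the CARM1 knockout and 1 rose and 3 fell in the NFIB mutant. Of all genes, 38.8% and 45.8% were called in either direction, and 18.3% and 23.5% were called lower. The list's median log2 fold change was -0.79 and -0.73, against -0.03 and -0.05 over all genes. E2f4, which pairs with p107 and p130, was the 1 that rose (37.5 ± 6.74 CPM in TKO, 81.1 ± 24.6 CPM and 92.8 ± 10.5 CPM in the mutants, log2 fold changes 1.11 and 1.31). E2f2 and E2f3, activators bound by pRB, fell in both mutants, E2f2 with log2 fold changes of -1.26 and -1.42 and E2f3 with -1.02 and -1.24. E2f6, a repressor, had -0.81 and -1.03. E2f1 had 289, 105 and 123 CPM in TKO and 84.2 to 118 CPM in the mutants, and was not called (-0.83 and -0.79, adjusted p = 0.116 and 0.117, edgeR). The CARM1 knockout count of 5 became 2 without TKO replicate 1 or CARM1 knockout replicate 1 and 8 without TKO replicate 3, and the NFIB mutant count of 4 became 7 without TKO replicate 3. Of the 6 MuvB and B-Myb genes, 1 (Lin52) fell in the CARM1 knockout and 2 (Lin9 and Lin52) in the NFIB mutant. The shares of all genes were the same 18.3% and 23.5%. The NFIB mutant count became 1 without TKO replicate 2.

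Of 28 E2F target genes of DNA replication, 3 fell and none rose in the CARM1 knockout (Pcna and Gins1 among them), and 2 fell and none rose in the NFIB mutant (Mcm2 and Orc6), by edgeR's quasi-likelihood test, shares below the 18.3% and 23.5% of all genes that fell. These genes were named because the counts are small, after their values were seen. The list's median log2 fold change was -0.39 and -0.23, against -0.03 and -0.05 over all genes. In the CARM1 knockout the count was 1 without TKO replicate 1, TKO replicate 2 or CARM1 knockout replicate 2, and 10 without TKO replicate 3. In the NFIB mutant it was 0 without NFIB mutant replicate 3 or any 1 CARM1 knockout library, 1 without TKO replicate 2 and 5 without TKO replicate 3. TKO replicate 3 was the lowest of the TKO libraries for every gene of this list, such as Mcm2 with 235 CPM against 513 and 649 CPM. The same library had 67.8 CPM of Rbl1, and a link between these values was not tested.

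Around p53, 10 of 11 family members and regulators were tested, Trp63 being filtered out. None rose, 3 fell in the CARM1 knockout and 7 in the NFIB mutant, where 18.3% and 23.5% of all genes fell. Mdm4, an inhibitor of p53, had log2 fold changes of -1.49 and -1.92, Ppm1d, a phosphatase that p53 induces and that acts against it, -1.24 and -1.18, and Chek1, a checkpoint kinase, -1.51 and -1.68. Mdm2, the main ubiquitin ligase of p53 and itself a target, had 66.9, 80.2 and 87.3 CPM in TKO, 71.0, 58.8 and 49.8 CPM in the CARM1 knockout and 57.8, 55.7 and 42.6 CPM in the NFIB mutant and was under the fold threshold (-0.38 and -0.59, adjusted p = 0.162 and 0.0452, edgeR).

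Of 24 p53 target genes, 4 rose and 6 fell in the CARM1 knockout, and 4 rose and 4 fell in the NFIB mutant. Of all genes, 38.8% and 45.8% were called in either direction. The list had no common direction (median log2 fold change -0.27 and 0.14). Tnfrsf10b, a death receptor, rose from 1.78 to 2.30 CPM in TKO to 23.3 to 66.3 CPM in the mutants (log2 fold changes 4.41 and 4.62), Fas, another death receptor, by 5.79 and 5.12 on the log2 scale, Plk2, a kinase, by 2.48 and 2.498, and Phlda3, an inhibitor of AKT, by 2.06 and 2.05. Sesn1 (log2 fold changes -1.09 and -0.90), Zmat3 (-0.82 and -0.90) and Btg2 (-1.26 and -1.16) fell in both mutants. The NFIB mutant count of 8 became 5 without NFIB mutant replicate 2 or 3. Within TKO, replicate 3 stood apart from replicates 1 and 2 at some targets, chosen after their values were seen. Ccng1 had 149 CPM there against 27.9 and 29.0 CPM, Trp53inp1 103 CPM against 26.04 and 22.5 CPM, and Eda2r 27.7 CPM against 0.192 and 0.0437 CPM, while Trp53 itself was at 12.4 CPM against 10.9 and 9.62 CPM.

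**Figure D5:**
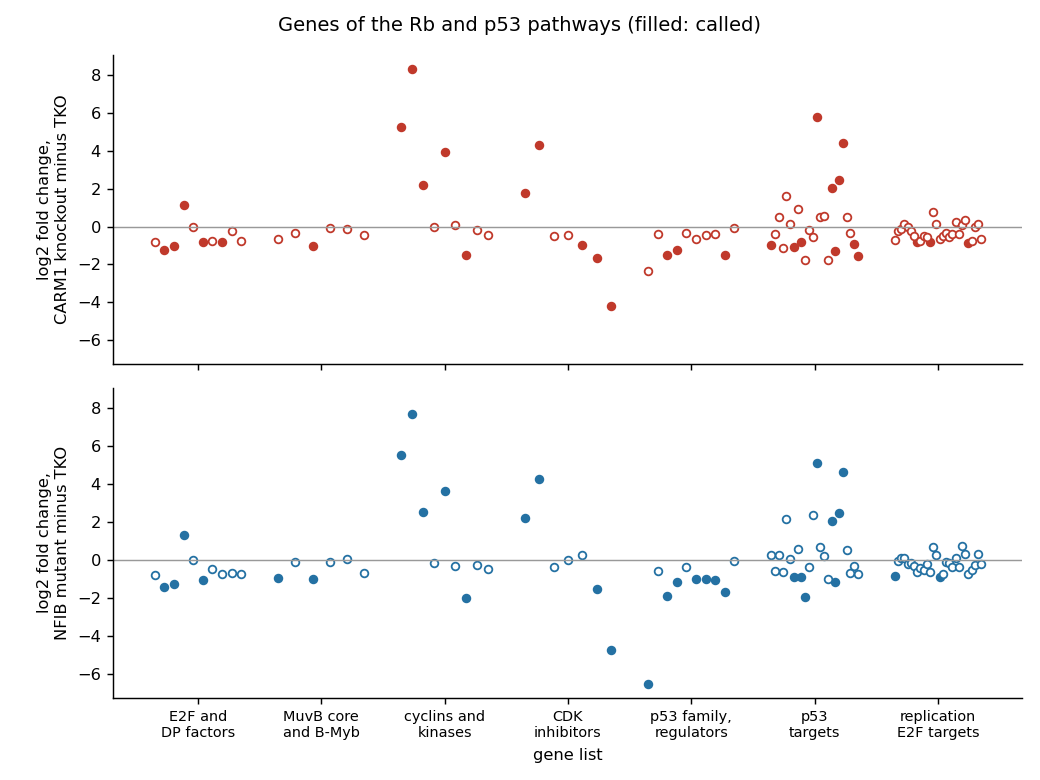
Log2 fold change against TKO (vertical axes) of every tested gene of 7 lists (horizontal axis) in the CARM1 knockout (upper) and the NFIB mutant (lower); filled points were called. D-type cyclins, Cdk6 and Cdkn2b rose and Cdkn1b and Cdkn1c fell in both.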

How the data were processed

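RNA-seq and ATAC-seq counts were analysed as the authors deposited them. The deposited RNA-seq counts are reads per gene, made with trim-galore, hisat2 and htseq-count according to the study's methods. The deposited ATAC-seq counts are reads per peak of 1 shared peak set, after Bowtie2 alignment, Picard duplicate removal, peak calling with MACS2 and, per the file headers, featureCounts 1.6.3 on merged peaks with no option for read pairs, so mates of a pair count apart. The submitters' processing notes list Genrich as well, and GRCm38. Regions with putative copy number changes had been filtered out by the authors. The columns of both tables are headed C, KO and N with a number and were read as TKO, CARM1 knockout and NFIB mutant, because the study calls TKO the control and names the others so. The labels do not spell out these letters, C could also stand for Carm1, and every comparison rests on this reading.

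Genes were placed by GENCODE vM21, and sequences came from RefSeq and GRCm38. Tests used edgeR 4.0.16 (TMM, filterByExpr, robust quasi-likelihood fit over the 9 libraries of an assay, Benjamini-Hochberg over all features tested), with calls at an adjusted p below 0.1 and a log2 fold change of at least 0.8 (RNA) or 0.5 (peaks) in size. Reads in no gene were left out. They were 10.0 to 12.2% of RNA-seq counts in TKO, 4.84 to 5.14% in the CARM1 knockout and 3.65 to 5.17% in the NFIB mutant. This share thus differed between TKO and both mutants, and its part in the comparisons was not tested. Alternatives were DESeq2 1.42.0, other scalings, filters and thresholds, a replicate block and leaving out each library. With 3 animals a group, p-values cover the spread between these animals. From each list were named up to 4 genes called alike in both mutants with the largest change and at least 10 CPM, plus Mdm2, Cdkn1a, E2f1 and E2f3, and the 3 genes most like each member. Ccne2, E2F targets of replication, Lin9, Sesn1, Zmat3, Btg2, Ccng1, Trp53inp1 and Eda2r were named after their values were seen. The members and lists were chosen with earlier results of these data known. Some genes of the lists are counted but not reported here by name.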

Additional observations from a re-analysis of the deposited data

How the results depend on the processing

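Of 32 fold changes of single genes and peaks against TKO, 550 alternative values were computed, of which 490 kept direction and side of the thresholds, 16 lost a call, 21 gained one and 23 changed sign. The count of the 4 genes called in the CARM1 knockout, 2, became 0 with no filter on low counts, with the replicate block and at an adjusted p below 0.05, and 0 to 2 with a library left out. In the NFIB mutant the count of 1 became 2 with DESeq2, 2 with at least 10 counts in every library and 3 with scaling by totals alone, and 0 to 1 with a library left out. Of the 16 peaks, 3 rather than 8 were called in the CARM1 knockout and 2 rather than 6 in the NFIB mutant with at least 10 counts in every library, which tests fewer peaks, and 8 to 10 and 6 to 10 with a library left out. The replicate block changed no other count of members called, and same-numbered libraries did not deviate together (correlations of -0.297 to 0.118 in RNA-seq), so the numbers were not taken as pairs.

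Sign changes were at uncalled values. The Rbl1 RNA fold change in the NFIB mutant was -0.11 to 2.40 with a library left out. With scaling by totals alone, by start sites of evenly expressed genes and by totals without the largest peaks, the start-site peak of Rb1 was 0.24, 0.12 and 0.045 in the NFIB mutant, and that of Trp53 0.26, 0.078 and 0.047 in the CARM1 knockout and 0.32, 0.23 and 0.13 in the NFIB mutant. The Rb1 start-site peak in the CARM1 knockout was 0.18 with totals alone. The Rbl2 start-site peak in the NFIB mutant was 0.16 with totals alone and 0.067 with start sites, and in the CARM1 knockout -0.13 with DESeq2, -0.14 with its size factors in edgeR and -0.036 to 0.14 with a library left out. The Rbl1 start-site peak in the NFIB mutant was -0.11 with DESeq2 and with its size factors, and -0.48 to 2.45 with a library left out. Which scaling is right was not tested. Per length of the longest transcript, Rb1 again led in 4 libraries, but Rbl2 passed Trp53 in TKO replicate 2 and Rb1 in NFIB mutant replicate 3. With 3 animals a group, a difference under the spread of Rbl1 within a genotype could not be detected at any depth.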
